A study of Mus musculus with 6 samples.

Results

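The liver X receptors, LXRβ (*Nr1h2*) and LXRα (*Nr1h3*), and 7 genes they are known to act on were followed through RNA-seq libraries of sorted mammary cells from *Glis2*+/+ and *Glis2*-/- mice. The 9 genes, out of 54418 in the deposited count table, were taken by their symbols, and all of them passed the filter on low counts. The set was built around *Abca1*, which the study had labelled as changed in these same libraries, so its difference between genotypes is given here as a description and not as a test. The other 8 genes were added as its regulators and as partners in the same pathway.

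Mammary glands came from C57BL/6 females that were 4 weeks old, with 3 mice per genotype and 1 library per mouse. The *Glis2*-/- mice carry a germline knockout of *Glis2*, a transcriptional repressor, so that the mutation was not limited to the epithelium, and the *Glis2*+/+ mice carried no mutation of it. Cells were stained for CD24 and CD49f, and for TER-119, CD31 and CD45 to mark blood and endothelial cells, and were sorted before total RNA was extracted. Where a transcript differs between such libraries, fewer cells of a type and less RNA per cell cannot be told apart.

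LXRs are nuclear receptors that are switched on by oxysterols, which are oxidized forms of cholesterol. Together with a retinoid X receptor partner they bind DNA repeats in their target genes and raise the transcription of genes that carry cholesterol out of the cell. A second system, led by the factor SREBP2, works the other way: when sterols run short it turns on the genes of cholesterol synthesis and uptake. In the mammary gland these systems are known for supplying the sterols of membranes and milk.

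The libraries held between 24996524 and 31393917 counts. For *Glis2* itself the counts were 671, 663 and 510 in *Glis2*+/+ mice, and 252, 509 and 510 in *Glis2*-/- mice, so that the transcript was not absent. Its CPM did not overlap between genotypes and its TPM did, and it was not called (edgeR adjusted p = 0.906), so that genotypes rest on the labels. Of 12 luminal and 12 basal epithelial markers, each was above 0 in every library. *Epcam* had 349.1 to 739.4 CPM (counts scaled to library size), and *Krt8* of luminal cells and *Krt14* of basal cells were at least 1238 and 326.8 CPM in every library. Summed luminal markers overlapped between genotypes, whereas summed basal markers lay between 4823 and 6215 CPM in *Glis2*+/+ and between 6522 and 7895 CPM in *Glis2*-/- libraries. Summed fibroblast markers ranged from 2327 to 7831 CPM and were lowest in replicate 2 of either genotype. The summed lymphocyte markers were higher in each *Glis2*-/- library (28.3 to 62.2 CPM) than in any *Glis2*+/+ library (13.1 to 18.2 CPM), with the top value in *Glis2*-/- replicate 3.

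Per length, the 9 genes covered a wide range of levels. In *Glis2*+/+ cells *Apoe* stood highest at 189.2 ± 43.4 TPM (a unit scaled for transcript length and library size; SD, n = 3), followed by *Nr1h2* at 16.2 ± 1.37 TPM and *Lpcat3* at 5.77 ± 1.14 TPM (SD, n = 3 each). *Abca1* came next at 2.25 ± 0.415 TPM and was not separated from *Mylip* at 1.68 ± 0.465 TPM, since their libraries overlapped (SD, n = 3 each). *Abcg1* (0.83 ± 0.430 TPM) and *Nr1h3* (0.634 ± 0.146 TPM) also overlapped each other (SD, n = 3 each). *Abcg5* and *Abcg8*, at 0.16 and 0.0526 TPM, stood last and overlapped as well. These TPM values are low in absolute terms because *Gm23935*, a short noncoding RNA gene, took up 83.0% to 85.7% of all TPM, and they serve to rank genes within a library.

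**Figure D1:**
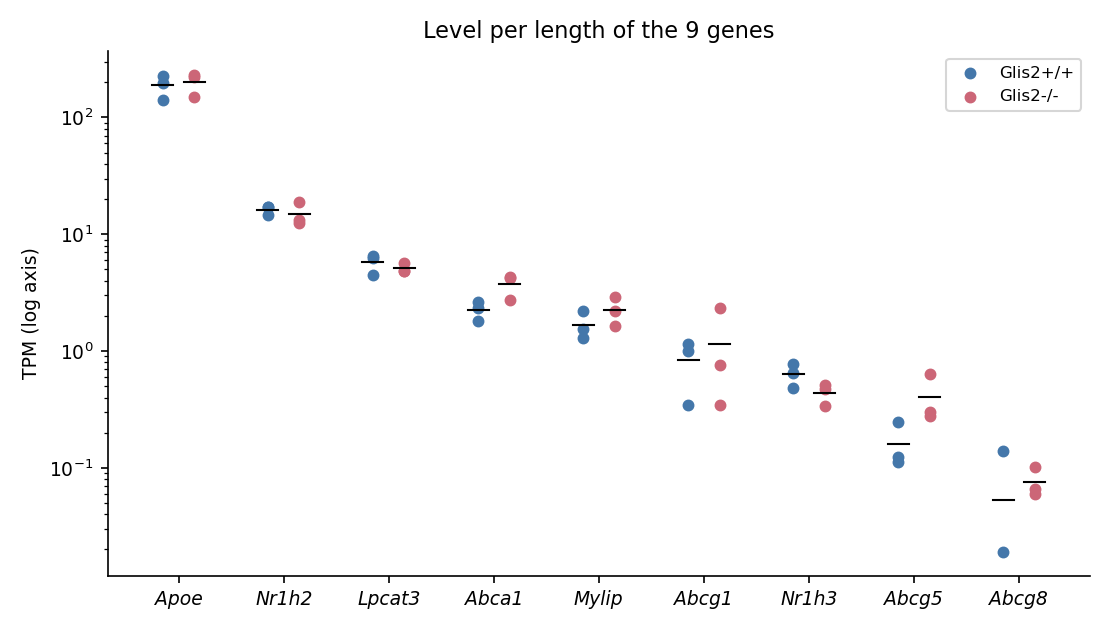
Level per length of the 9 genes, as TPM on a log axis, in 3 *Glis2*+/+ (blue) and 3 *Glis2*-/- (red) libraries, with lines at the group means. Genes are ordered by their *Glis2*+/+ mean from *Apoe* (189.2 TPM) to *Abcg8* (0.0526 TPM), and the *Glis2*+/+ library in which *Abcg8* was listed at 0 is not drawn.

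The question put to the counts was whether loss of *Glis2* went with a change of the LXR genes. In the edgeR quasi-likelihood test over 21236 genes, 0 genes passed an adjusted p of 0.05 and an absolute log2 fold change of 0.58 (percent called 0% higher and 0% lower), and so 0 of the 9. At an unadjusted p under 0.05 the same test gave 1130 genes, or 5.32% of those tested (2.99% higher and 2.33% lower). Among the 8 genes other than *Abca1* it gave 1, *Mylip*, higher in *Glis2*-/- cells. *Abca1* is left out of this count, since it was picked from this same comparison. Using DESeq2 with apeglm shrinkage, the procedure named in the study's methods, which tested 37074 genes, 36 were called higher (0.0971%) and 9 lower (0.0243%), and *Abca1* was among those called higher, which is how it came into the set. Fitted log2 fold changes were above 0 for 7 of the 9 genes and below 0 for 2, with a median of 0.56 beside 0.01 over all genes tested. Without *Abca1* the median was 0.43. The median of the 9 genes was 0.0896 with log2(TPM + 1) and 0.21 with log2(TPM + 0.1) in limma, 0.24 without *Glis2*+/+ replicate 2, 0.36 without *Glis2*+/+ replicate 3, 0.33 without *Glis2*-/- replicate 3 and 0 with DESeq2, whose shrinkage sets most folds to 0.

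*Nr1h2* encodes LXRβ, the receptor found in most tissues. It had 69.7, 76.6 and 74.0 CPM in the *Glis2*+/+ libraries and 75.6, 70.8 and 70.5 CPM in the *Glis2*-/- libraries. Those groups overlapped almost fully, with a log2 fold change of −0.02 (standard error, SE, 0.10) and the smallest spread of the 9 genes, at a coefficient of variation of 4.72% and 3.98% between mice.

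*Nr1h3* encodes LXRα, which is best known from liver, fat and macrophages. It had 5.83, 2.70 and 4.07 CPM in the *Glis2*+/+ libraries, and 2.48, 2.77 and 2.05 CPM in the *Glis2*-/- libraries. The *Glis2*-/- values sat at the low end of the *Glis2*+/+ values and overlapped them through *Glis2*+/+ replicate 2. Its log2 fold change of −0.79 (SE 0.38) did not pass the test (adjusted p = 0.906 from edgeR), and became −0.49 without *Glis2*+/+ replicate 1. Within a library, the TPM of *Nr1h2* was between 19.0 and 40.5 times that of *Nr1h3*. *Gm13783*, a noncoding gene on the same strand, shares exon sequence with *Nr1h3*, so that counts could have been split between them.

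*Abca1* (ENSMUSG00000015243, chromosome 4, 53030787 to 53159895 of GRCm38, minus strand) encodes the pump that hands cholesterol and phospholipid to lipid-poor apolipoproteins. Its counts were 3562, 2483 and 1917 in *Glis2*+/+ mice, and 4247, 3927 and 5253 in *Glis2*-/- mice. Scaled to library size these were 115.4, 86.9 and 73.6 CPM against 169.7, 131.1 and 167.9 CPM. Every *Glis2*-/- library thus lay above every *Glis2*+/+ library, and *Abca1* was the only 1 of the 9 for which the CPM values did not overlap, where 6.23% of all genes tested lay higher without overlap and 5.5% lower. The mean was 92.0 ± 21.4 CPM in *Glis2*+/+ cells and 156.2 ± 21.8 CPM in *Glis2*-/- cells (SD, n = 3 each), 1.70 times as high, with a log2 fold change of 0.76 (SE 0.18). The fold stayed between 0.63 and 0.94 with each library left out in turn. Nothing is read from this separation, since *Abca1* was picked from this same comparison, in which DESeq2 gave it a log2 fold change, after shrinkage, of 0.64 (adjusted p = 0.0436), just inside the threshold.

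The stretch before its start site is shown because LXR and E-box factors are known to act on *Abca1* there. It is chr4:53159896-53160145 (GRCm38.p6, minus strand, from RefSeq), the 250 bases that precede the start site. Capitals mark, from left to right, the E-box CACGTG, a loose repeat of the LXR type and the word TATAAA.
Abca1: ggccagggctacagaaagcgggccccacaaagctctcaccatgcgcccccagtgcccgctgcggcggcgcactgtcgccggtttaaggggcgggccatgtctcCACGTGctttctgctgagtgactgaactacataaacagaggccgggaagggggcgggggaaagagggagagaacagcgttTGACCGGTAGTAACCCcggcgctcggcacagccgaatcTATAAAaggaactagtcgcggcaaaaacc

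Promoter windows, 250 bases before and 50 after a start site, were at hand for 8 of the 9 genes, and *Abcg1* was not among them. The LXR repeat of AGGTCA followed 4 bases on by a second AGGTCA, read on both strands with at most 1 mismatch in each of its AGGTCA arms, was found in 0 of the 12 windows of the 8 genes and in 1.75% of 32851 windows of all genes. With up to 3 mismatches in all, a setting chosen after the sequence had been seen, *Abca1* alone of the 8 held a match, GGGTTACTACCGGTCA on the other strand, from 67 to 52 bases before the start site. So loose a pattern occurs in 18.8% of all windows. The E-box CACGTG lay 147 to 142 bases before the *Abca1* start site and in none of the other 7 genes, against 7.15% of all windows. The word TGGGGGGT, the core of sites known for GLIS factors, was in 0 of the 12 windows and 1.53% of all windows, both strands read. A match describes letters in the window and not a bound site, and its lack says nothing of the factor.

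*Abcg1* encodes a transporter that passes cholesterol on to HDL particles and that is a classical LXR target. It had 8.62, 9.35 and 5.41 CPM in the *Glis2*+/+ libraries and 19.2, 13.4 and 7.22 CPM in the *Glis2*-/- libraries. Replicates 1 and 2 of *Glis2*-/- lay above all *Glis2*+/+ libraries, while replicate 3 lay within them. Its log2 fold change was 0.77 (SE 0.37, edgeR adjusted p = 0.906) and went down to 0.40 without *Glis2*-/- replicate 1 and up to 1.05 without *Glis2*-/- replicate 3. On the TPM scale the values were 1.16, 0.992 and 0.343 against 2.34, 0.761 and 0.346, and the log2 fold change with log2(TPM + 1) in limma was 0.15 (SE 0.39). It was 0.21 with log2(TPM + 0.1). The mean TPM was 0.83 ± 0.430 against 1.15 ± 1.05 (SD, n = 3 each).

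*Abcg5* and *Abcg8* encode the 2 parts of a transporter that sends sterols into bile and gut, and are known from liver and intestine. *Abcg5* had 52, 23 and 17 counts in the *Glis2*+/+ and 25, 79 and 110 counts in the *Glis2*-/- libraries. *Abcg8* had 43, 5 and 0 counts against 15, 22 and 36. Both genes were thus low in every mouse, and their libraries overlapped in CPM. In TPM, *Abcg5* had 0.246, 0.124 and 0.112 against 0.278, 0.299 and 0.634, without overlap. The log2 fold change of *Abcg5* was 1.182 (SE 0.61, edgeR adjusted p = 0.919), and was 0.78 without *Glis2*-/- replicate 3 and 1.69 without *Glis2*+/+ replicate 1. That of *Abcg8* (0.65, SE 1.23) ranged from 0.08 to 3.14 with 1 library left out, the latter without *Glis2*+/+ replicate 1. *Abcg8* passed the filter on low counts through 4 libraries, which included all 3 of *Glis2*-/-.

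These genes lie head to head on chromosome 17, and in the RefSeq models 109 bases part the start site of *Abcg5* from the nearer of the 2 listed for *Abcg8*, the other of which lies within *Abcg5*. The stretch between them is chr17:84683012-84683120 (GRCm38.p6), shown on the plus strand, that of *Abcg8*, with *Abcg5* read leftward from its left end. No motif is marked.
Abcg5-Abcg8: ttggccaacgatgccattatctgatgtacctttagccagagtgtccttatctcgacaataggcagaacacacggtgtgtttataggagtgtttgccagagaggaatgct
In the GENCODE annotation the genes also overlap on opposite strands, with shared exon positions, and reads there can be assigned only by strand.

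*Mylip* encodes IDOL, a ubiquitin ligase that LXR induces and that limits the uptake of cholesterol. It had 21.2, 16.3 and 25.7 CPM in the *Glis2*+/+ libraries and 36.5, 25.04 and 31.5 CPM in the *Glis2*-/- libraries. The groups overlapped only between *Glis2*+/+ replicate 3 and *Glis2*-/- replicate 2. The mean was 21.1 ± 4.68 CPM (SD, n = 3) against 31.03 ± 5.76 CPM (SD, n = 3), 1.47 times as high, with a log2 fold change of 0.56 (SE 0.21, edgeR adjusted p = 0.906) that lay between 0.41 and 0.72 without 1 library. Among the 9461 protein-coding genes with at least 10 CPM, *Mylip* was 525th in likeness to the *Abca1* pattern over the 6 libraries, ahead of *Apoe* at 734th.

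The *Mylip* promoter is shown as that of the member nearest to *Abca1* in pattern, among the members with at least 10 CPM. *Nr1h3*, *Abcg5* and *Abcg8* were below that level and were not ranked. It is chr13:45389492-45389741 (GRCm38.p6, plus strand, from RefSeq), 250 bases up to the start site, with TATAAA in capitals.
Mylip: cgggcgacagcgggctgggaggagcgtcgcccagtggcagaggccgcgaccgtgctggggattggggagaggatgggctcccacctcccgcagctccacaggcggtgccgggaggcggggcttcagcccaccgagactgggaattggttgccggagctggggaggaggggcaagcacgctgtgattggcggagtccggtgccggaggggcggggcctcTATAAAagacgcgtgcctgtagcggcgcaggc
TATAAA, a word searched for only after the sequences had been seen, was present on either strand in 5 of the 12 windows of the 8 genes (1 each of *Abca1*, *Abcg5*, *Abcg8*, *Apoe* and *Mylip*) and in 13.6% of all windows. The matches of *Abcg5* and *Abcg8* are the same 6 bases between their start sites. GC content was 62.7% in the *Abca1* window and 71.0% in that of *Mylip*, beside a median of 52.7% over all windows.

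*Apoe*, the apolipoprotein that accepts cholesterol from the transporters, is made by macrophages, fibroblasts and epithelium alike. It had 730.1, 474.5 and 688.9 CPM in the *Glis2*+/+ libraries and 747.7, 634.9 and 937.0 CPM in the *Glis2*-/- libraries. The groups overlapped, and replicate 2 was the lowest of each genotype. Its log2 fold change was 0.29 (SE 0.19, edgeR adjusted p = 0.940), from 0.12 to 0.41 without 1 library. Replicate 2 also held the lowest sums of fibroblast markers (2327 CPM in *Glis2*+/+ and 2648 CPM in *Glis2*-/-) and of endothelial markers (256.1 and 346.6 CPM) in its genotype, and the part of these cells in the *Apoe* level was not tested.

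*Lpcat3* encodes an enzyme that puts polyunsaturated fatty acids into membrane phospholipids and that LXR induces. It had 26.3, 37.9 and 33.0 CPM in the *Glis2*+/+ and 31.2, 35.8 and 31.5 CPM in the *Glis2*-/- libraries. The groups overlapped, with a log2 fold change of 0.02 (SE 0.16). *Emg1*, on the opposite strand, shares exon positions with it.

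**Figure D2:**
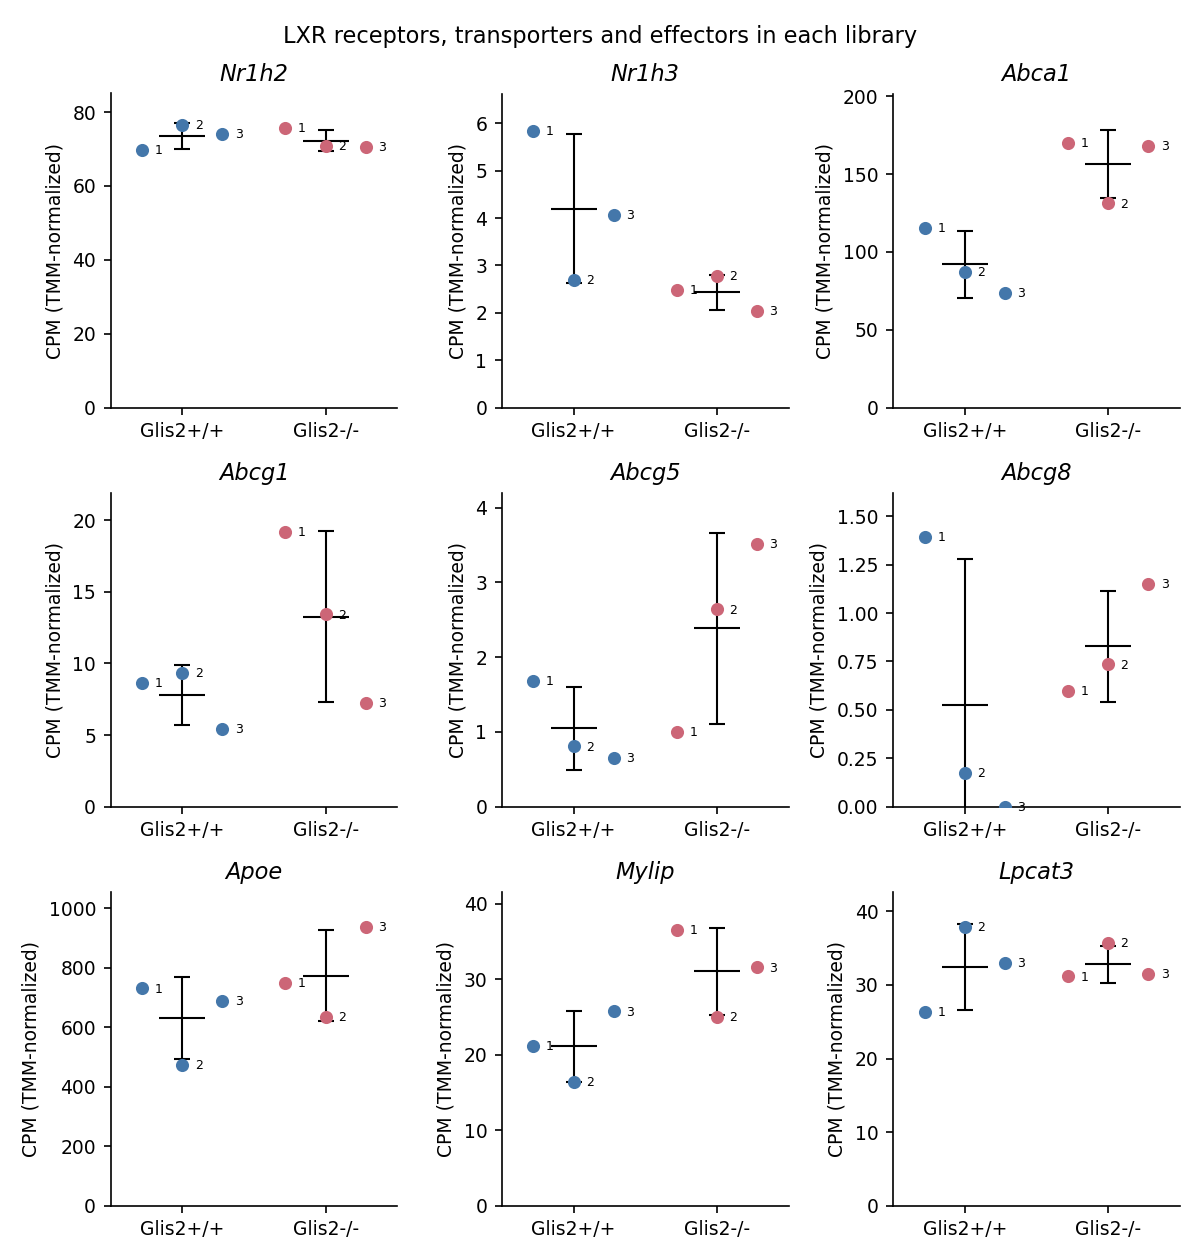
CPM after TMM scaling of the 9 genes in each library, with replicate numbers beside the points and lines and bars at the mean ± SD of 3 mice per genotype; the lower bar of *Abcg8* in *Glis2*+/+ is cut at 0. For *Abca1* the *Glis2*-/- libraries (131.1 to 169.7 CPM) lay above the *Glis2*+/+ libraries (73.6 to 115.4 CPM), and the other genes overlapped.

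**Figure D3:**
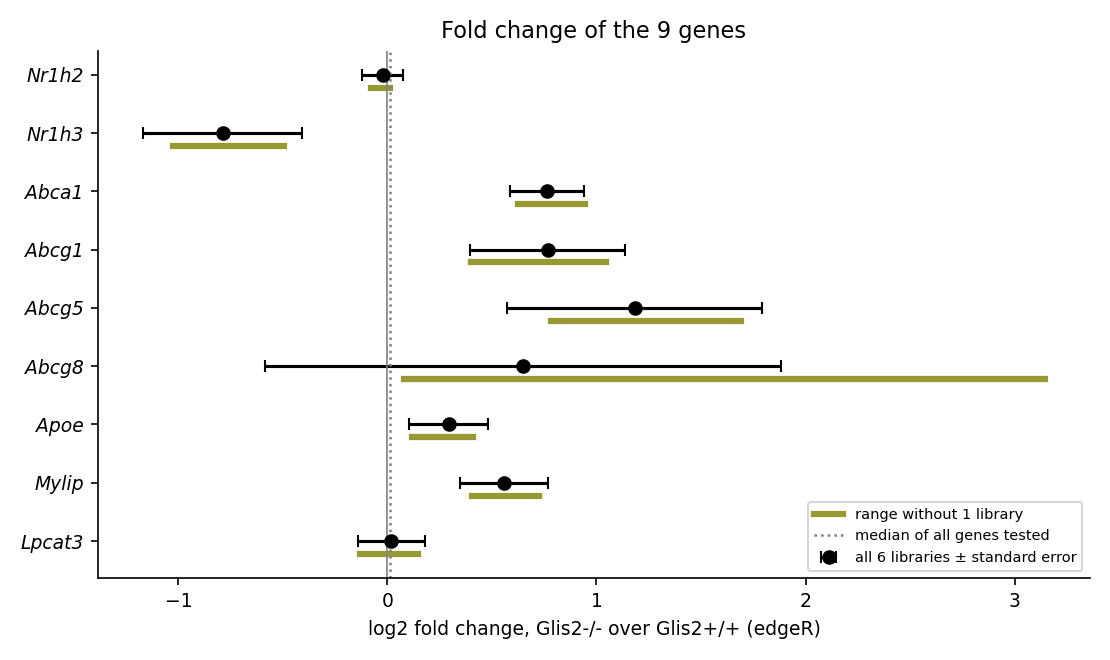
Log2 fold change of the 9 genes in *Glis2*-/- over *Glis2*+/+ cells from edgeR, with SEs (black) and the range with 1 library left out (olive). The range of *Abcg8* is the widest (0.08 to 3.14), and that of *Abca1* runs from 0.63 to 0.94.

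Markers of macrophages, the cells in which LXR and *Abca1* are best known, were low, and their sum overlapped between genotypes. Of 15 markers, 14 were above 0 in every library, *Fcgr1* was at 0 in at least 1, and their sum lay between 55.2 and 75.8 CPM in *Glis2*+/+ and between 54.5 and 79.9 CPM in *Glis2*-/- libraries. *Adgre1*, which encodes F4/80, had 73, 20 and 79 counts against 24, 14 and 20, a log2 fold change of −1.56 (SE 0.66). *Cd68* overlapped, at 2.17 to 5.54 CPM against 2.37 to 4.86 CPM, with a log2 fold change of −0.19 (SE 0.44). *C1qa*, a complement gene of macrophages, had 1.52, 0.245 and 1.42 CPM in *Glis2*+/+ and 1.68, 1.87 and 2.94 CPM in *Glis2*-/- libraries, higher without overlap, with a log2 fold change of 1.02 (SE 0.67, edgeR adjusted p = 0.940). The median log2 fold change of the 14 macrophage markers tested was 0.32. Of these 1 lay higher without overlap and 0 lower, beside 6.23% and 5.5% over all genes tested. *Csf1r* had 186, 77 and 140 counts against 154, 151 and 219. The sum of 10 adipocyte markers overlapped (114.9 to 697.9 CPM in *Glis2*+/+ and 187.0 to 549.1 CPM in *Glis2*-/- libraries), with a median log2 fold change of −0.18. Among the 9 of them tested, *Adipoq*, with 37 to 106 counts against 0 to 26, was the 1 that lay lower without overlap in CPM, and 0 lay higher. Over all genes tested these shares were 5.5% and 6.23%, and *Adipoq* overlapped in TPM. Beside *Abca1*, the sums that moved without overlap in its direction were those of basal and lymphocyte markers given above. Among the macrophage markers *C1qa* lay higher, while *Adgre1* and *Cd68* had folds below 0. The part of these cells in the *Abca1* values was not tested.

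By the root mean square difference of centred log2 CPM over the 6 libraries, the 5 protein-coding genes most like *Abca1* were *Rflnb*, *Nagk*, *Fbxo32*, *Kcnmb1* and *Cep97*, at 0.08 to 0.12. *Rflnb*, the nearest, had 131.3, 90.6 and 83.3 CPM in the *Glis2*+/+ libraries and 200.1, 156.9 and 208.3 CPM in the *Glis2*-/- libraries. As for *Abca1*, the *Glis2*-/- libraries lay higher and replicate 2 was the lowest of them. The log2 fold changes of the 5 genes, from 0.68 to 0.89, have the sign of *Abca1* because they were picked for likeness to it over these same libraries.

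LXR works with retinoid X receptors, cofactors and the enzymes that make its ligands. Of 17 partners and cofactors, all were tested and 0 were called, and the median log2 fold change was −0.01. In CPM 2 lay higher without overlap and 0 lower (6.23% and 5.5% over all genes tested). *Rxra*, the main RXR of epithelia, had 73.2, 68.9 and 66.0 CPM against 84.7, 86.4 and 78.3 CPM, without overlap in CPM but with overlap in TPM, and a log2 fold change of 0.26 (SE 0.10, edgeR adjusted p = 0.906). *Rxrb* differed by −0.02 on the log2 scale (SE 0.19). Of 9 enzymes that make or break down oxysterols, 8 were tested and 0 called. *Cyp27a1*, which makes 27-hydroxycholesterol, had 0.94, 0.14 and 1.11 CPM against 1.28, 2.20 and 2.62 CPM. Its libraries did not overlap in CPM but did in TPM, with a log2 fold change of 1.48 (SE 0.73, edgeR adjusted p = 0.907).

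Of 24 other LXR target genes, 21 were tested and 0 called. In this list 6 of 21 genes lay higher in CPM in all *Glis2*-/- libraries and 0 lay lower, beside 6.23% and 5.5% over all genes tested. In TPM most of these, *Pltp* among them, overlapped between genotypes, and *Lbp* and *Apoc1* did not. The median log2 fold change of the list was 0.00, with 10 genes above 0 and 11 below. *Pltp*, the phospholipid transfer protein, had 40.2, 25.8 and 23.7 CPM in *Glis2*+/+ and 42.1, 41.1 and 56.4 CPM in *Glis2*-/- libraries, a log2 fold change of 0.64 (SE 0.22, edgeR adjusted p = 0.906). *Lbp*, which binds bacterial lipopolysaccharide, and *Apoc1*, an apolipoprotein encoded next to *Apoe*, had log2 fold changes of 0.54 (SE 0.20) and 0.45 (SE 0.20). *Srebf1*, the LXR target that drives fatty acid synthesis, had 113.2, 144.2 and 118.9 CPM against 123.8, 138.4 and 105.0 CPM, with overlap and a log2 fold change of −0.04 (SE 0.14). Of 26 genes of cholesterol efflux and storage, 24 were tested and 0 called, with 1 lying higher, *Tspo* of the mitochondrial membrane (log2 fold change 0.45, SE 0.19), and 1 lower without overlap, *Npc2*, which carries cholesterol out of lysosomes and is named after its values were seen (−0.09). Over all genes tested these shares were 6.23% and 5.5%. These counts are in CPM, and *Tspo* and *Npc2* overlapped in TPM.

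Most genes of the SREBP2 system had fitted folds below 0, whereas the median over the 21 other LXR target genes tested was −0.001. Of 23 such genes 22 were tested, of which 20 had a log2 fold change below 0 and 2 above, with a median of −0.35. In 11 of them every *Glis2*-/- library lay below every *Glis2*+/+ library, and in 0 above, where 5.5% of all genes tested lay lower without overlap. The edgeR test called 0 of them. *Cyp51* was called lower by DESeq2 and is labelled by the study from these libraries, so that it is not independent evidence of the direction of the list.

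*Cyp51*, an enzyme of sterol synthesis, had 31.01, 25.7 and 33.1 CPM in *Glis2*+/+ and 14.1, 17.4 and 17.8 CPM in *Glis2*-/- libraries, a log2 fold change of −0.87 (SE 0.17). *Srebf2*, which encodes SREBP2 itself, had 209.6, 220.5 and 201.6 CPM against 175.9, 162.7 and 174.3 CPM, a log2 fold change of −0.30 (SE 0.09, edgeR adjusted p = 0.906). Neither gene overlapped between genotypes. *Idi1*, *Fdps*, *Msmo1*, *Hmgcs1* and *Dhcr7*, further enzymes of the sterol pathway, had log2 fold changes of −0.85, −0.72, −0.55, −0.47 and −0.45, and none was called.

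**Figure D4:**
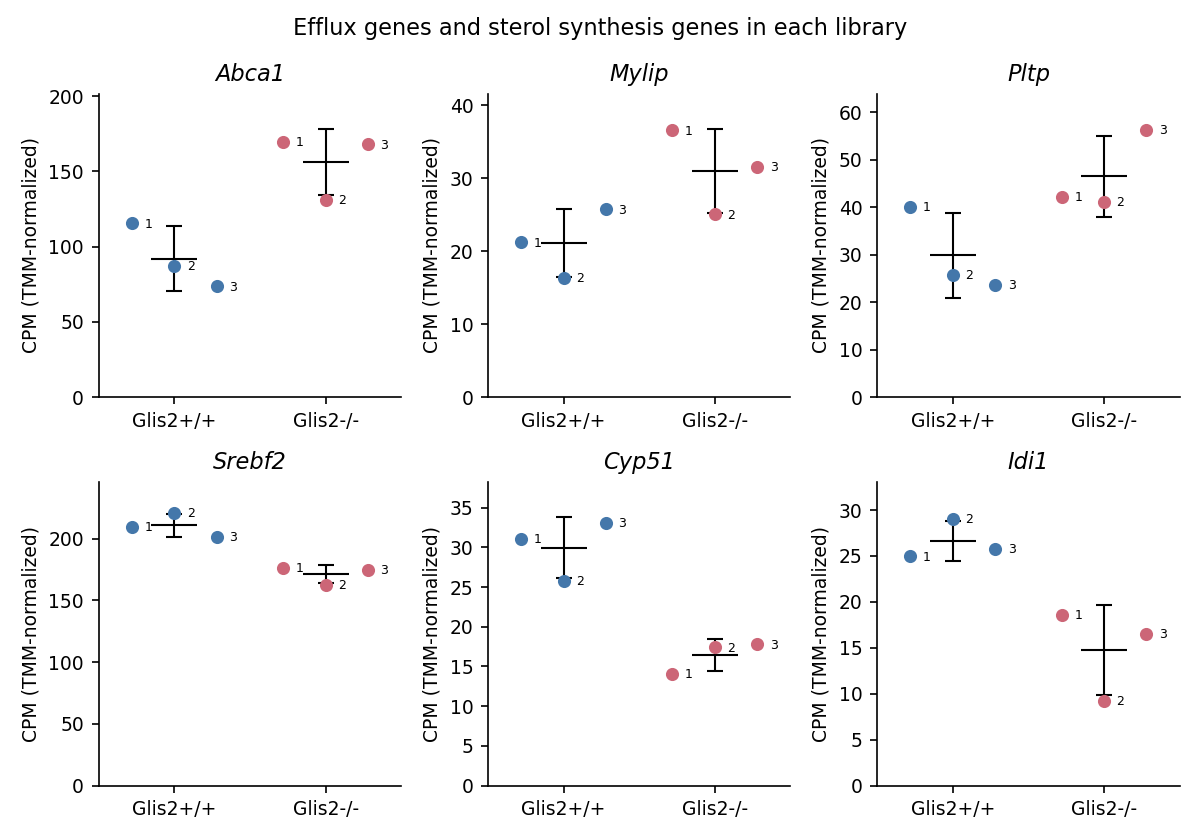
CPM after TMM scaling of *Abca1*, *Mylip* and *Pltp* and of the sterol synthesis genes *Srebf2*, *Cyp51* and *Idi1* in each library, with the mean ± SD of 3 mice per genotype. *Cyp51* lay between 14.1 and 17.8 CPM in *Glis2*-/- and between 25.7 and 33.1 CPM in *Glis2*+/+ libraries, and *Abca1* lay the other way.

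**Figure D5:**
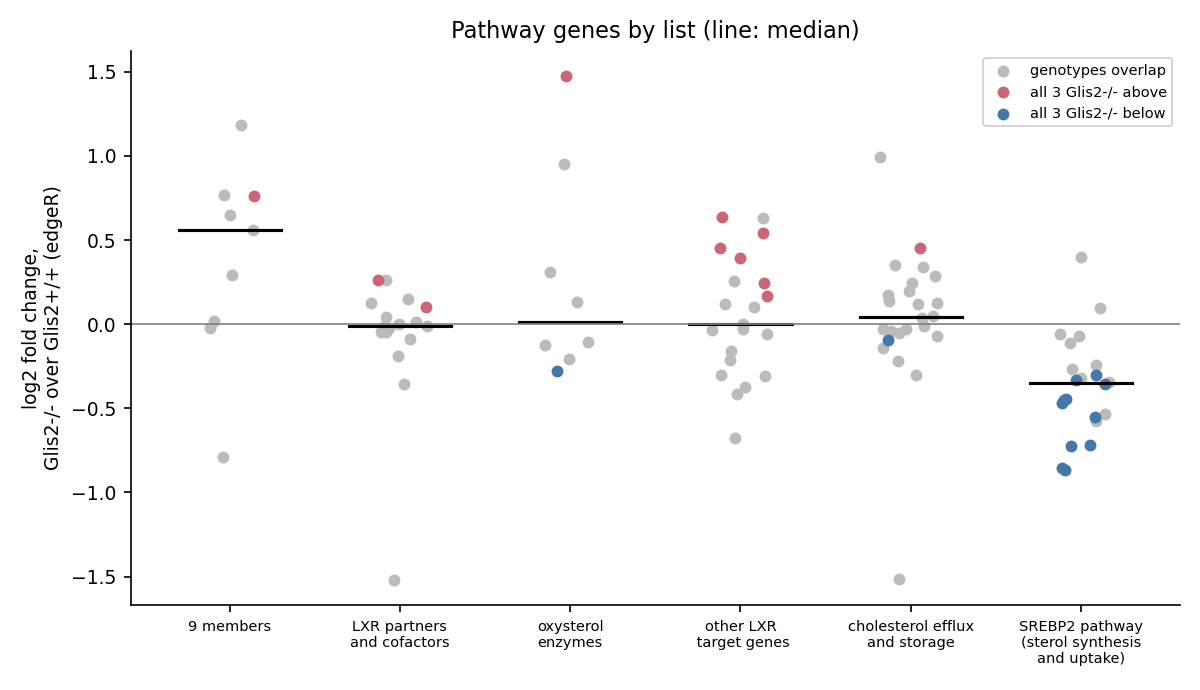
Log2 fold changes from edgeR of the genes tested in each list, with a line at the list's median. Red and blue points are genes whose 3 *Glis2*-/- libraries all lay above or all below the 3 *Glis2*+/+ libraries in CPM. The median is 0.56 for the 9 genes (0.0896 with log2(TPM + 1) in limma) and −0.35 for the SREBP2 list, and 0 of the points passed the edgeR thresholds.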

How the data were processed

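The authors made stranded total RNA libraries, estimated transcript levels with Salmon 1.2.1 on an Ensembl transcriptome of mm10 with the genome as decoy, and summed them per gene with tximport. The deposited tables hold estimated counts per gene as whole numbers without scaling, and log2 of TPM + 1. Whether Salmon was run with the strand of the kit is not given in the sources used here. Of 54418 identifiers, 54166 were matched to GENCODE M21 (GRCm38, the assembly of mm10) for symbols, and promoters were taken from RefSeq (GRCm38.p6).

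Counts were compared with edgeR 4.0.16 (R 4.3.3; filterByExpr, TMM, quasi-likelihood test, no replicate block), with Benjamini-Hochberg adjustment over all 21236 genes tested. Standard errors are the log2 fold change over the square root of F. CPM values use TMM library sizes. With 3 mice against 3, the smallest two-sided exact permutation p is 0.1, so none is given for single genes. The common biological coefficient of variation was 37.4%, and no library was a copy of another, with a chi-square per degree of freedom of at least 20.5. The code was tested on simulated data. DESeq2 folds were rounded to 3 decimals, since shrinkage varied in later digits between runs.

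Alternatives were DESeq2 1.42.0 with apeglm 1.24.0, DESeq2 size factors, omitting the low-count filter, requiring 10 counts in each library, log2(TPM + 1) and log2(TPM + 0.1) in limma 3.58.1, a replicate block and leaving out each library. The 9 genes and all lists were chosen with earlier results of these data known. Named pathway genes are the 12 with the largest fold among those with a mean of at least 1 CPM, no overlap between genotypes and a log2 fold change beyond 0.3 in size, and, whatever their values, *Cyp51* (also among the 12), *Srebf1*, *Srebf2*, *Rxra* and *Rxrb*. A gene that met the rule is not reported here.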

Additional observations from a re-analysis of the deposited data

How the results depend on the processing

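The count of genes called, 0 in edgeR, was 45 with DESeq2 and apeglm, 40 without a filter on low counts and 1 with log2(TPM + 0.1) in limma, and 0 in the other 10 alternatives, from 0 to 0 with each library left out. Of the 9 genes, 1 (*Abca1*) was called with DESeq2 (adjusted p = 0.0436) and 1 (*Abca1*) without a filter in edgeR (adjusted p = 0.0293), and 0 in the other 11. The log2 fold change of *Abca1* was above 0 in 13 of 13 alternatives (0.54 to 0.94). Nothing is read from these calls or from this sign, since *Abca1* was picked from these same libraries. *Lpcat3* changed sign to −0.00017 with at least 10 counts in every library, −0.13 with log2(TPM + 1), −0.15 with log2(TPM + 0.1), and between −0.13 and 0.15 without 1 library, and *Nr1h2* lay between −0.0772 and 0.00986 without 1 library. The other 6 genes changed sign in none of the alternatives that tested them, but shrinkage in DESeq2 set them to 0. *Abcg8* was not tested with at least 10 counts in every library.

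The median log2 fold change of the 9 genes, 0.56, became 0 with DESeq2, whose shrinkage sets most folds to 0, 0.0896 with log2(TPM + 1), 0.21 with log2(TPM + 0.1) and between 0.24 and 0.68 without 1 library. For all pathway genes, −0.04, it was −0.13 with log2(TPM + 1), −0.19 with log2(TPM + 0.1) and between −0.0883 and −0.0288 without 1 library. A replicate block gave 0 calls and a median of 0.56 for the 9 genes. It lowered the SE of *Abca1*, *Abcg1*, *Apoe*, *Mylip* and *Lpcat3*, and raised that of *Nr1h2*, *Nr1h3*, *Abcg5* and *Abcg8*. The numbers do not pair the mice, with correlations of same-numbered deviations of −0.02, 0.17 and 0.02, and only number 2 correlated best with itself. The count of promoters with the LXR repeat, 0, was 1 with up to 3 mismatches, a setting added after seeing the data. The cause of the other changes was not tested. Depth limits *Abcg5* and *Abcg8*, at 110 counts or fewer per library.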
